A study of Marmota monax with 203 samples.

Results

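The genes described here are 48 genes of mitosis, the step of the cell cycle in which duplicated chromosomes are separated and the cell divides. They were taken by symbol from 17587 woodchuck genes measured by RNA-Seq in liver biopsies, and 48 of the 48 symbols were found. The animals were adult woodchucks of both sexes, carriers of woodchuck hepatitis virus (WHV) since a neonatal infection, so that all groups, placebo included, had chronic viral hepatitis. The wIFN-α group (11 animals) received woodchuck interferon-α by subcutaneous injection 3 times a week, 20 μg a dose at first and 100 μg a dose from week 7 until week 15, and the placebo group (12 animals) received the vehicle alone. Biopsies were taken before treatment (week -3), 6 hours after the first dose (week 0), at weeks 3, 7, 11 and 15 of treatment, and at weeks 19 and 23, after dosing had ended. These weeks count from the first dose, and the sample labels number those from week 0 on as weeks 1, 4, 8, 12, 16, 20 and 24. The biopsy of week 7 followed the first dose of 100 μg and that of week 15 followed the last dose. At these 8 weeks there were 12, 12, 12, 12, 10, 9, 5 and 9 placebo biopsies and 11, 11, 9, 9, 8, 8, 6 and 6 wIFN-α biopsies. Some animals died during the study, and some that lived on had no biopsy used here at a given week. The placebo animals M1010 and F1017 were euthanized with symptoms that the study linked to terminal liver cancer. A further wIFN-α animal, M1004, was left out as in the study, which judged it likely to be clearing WHV without treatment. The same animals were biopsied repeatedly, so that values of different weeks are not independent. Placebo animals stand for a chronically infected liver over time, not for a healthy one.

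Mitosis is driven by cyclin-dependent kinase CDK1 with its cyclins and by further kinases of the Polo, Aurora and NIMA families. A surveillance system at the kinetochores, the spindle checkpoint, holds back the anaphase-promoting complex (APC/C) until each chromosome is attached, and APC/C then marks cyclin B and securin for destruction. The genes of this machinery are transcribed mostly in late cell cycle, through FOXM1 and B-Myb, so that in a tissue of mostly resting cells such as adult liver their transcripts come chiefly from the few cells that divide, among them hepatocytes in regeneration and dividing lymphocytes. In a whole biopsy, fewer dividing cells and less of these transcripts per dividing cell cannot be told apart.

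Depth was 12072840 to 84805845 reads on genes per biopsy, with a median of 28754894. Levels are given as CPM, a gene's reads relative to the reads on all genes of the biopsy after TMM scaling. The mitosis genes were expressed at a low level. At week -3 in placebo, the median number of reads per biopsy ranged from 5 for KIF4A to 401 for DLGAP5, and none of the 7152 values (48 genes in 149 biopsies) was 0. Several biopsies stood apart. The wIFN-α biopsy of F1013 at week 3 went against its label, since the mean log2(CPM + 1) of 12 interferon response genes was 3.83 in it, within the placebo range of 3.81 to 4.51, while the group's median was 8.83. The week -3 biopsies of F1016 (placebo) and F1018 (wIFN-α) held muscle, with 14.9% and 15.1% of reads on 20 skeletal muscle genes and summed CPM of 12 hepatocyte markers of 5952 and 2879, against group medians of 145300 and 142900. In all, 21 of the biopsies had more than 1% of reads on the muscle genes, among them F1021 at week 3 (placebo, 12.4%), F1023 at week 0 (wIFN-α, 8.21%) and M1011 at week 3 (placebo, 5.53%). Results for the mitosis genes that changed without these biopsies are given both ways. The lists of other genes were not examined without them.

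The course of the mitosis genes differed between the groups in both direction and timing. In placebo the median animal's mean log2(CPM + 1) over the 48 genes was 1.37 at week -3, 1.91 at week 0, 1.69 at week 3, 1.63 at weeks 7 and 11, 1.38 at week 15, 1.02 at week 19 and 1.20 at week 23. In wIFN-α it was 1.37, 1.57, 2.03, 2.17, 2.50, 2.54, 1.18 and 1.17 at the same 8 weeks. The wIFN-α median therefore lay below placebo 6 hours after the first dose, and above it at the 4 later weeks on treatment. For the level of the mitosis genes in each biopsy, wIFN-α mean minus placebo mean was -0.40 at week 0, 0.34 at week 3, 0.21 at week 7, 0.95 at week 11 and 1.19 at week 15. With each biopsy assigned to the sequencing lane of its deepest run, the difference within lanes was -0.38, 0.22, -0.04, 1.17 and 1.23. The difference of week 7 was not found in this way. The assignment was partial, since 37 of the biopsies used had several runs, and lanes without both groups did not enter. The plot of the level in each animal shows how individual animals followed these medians.

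**Figure D1:**
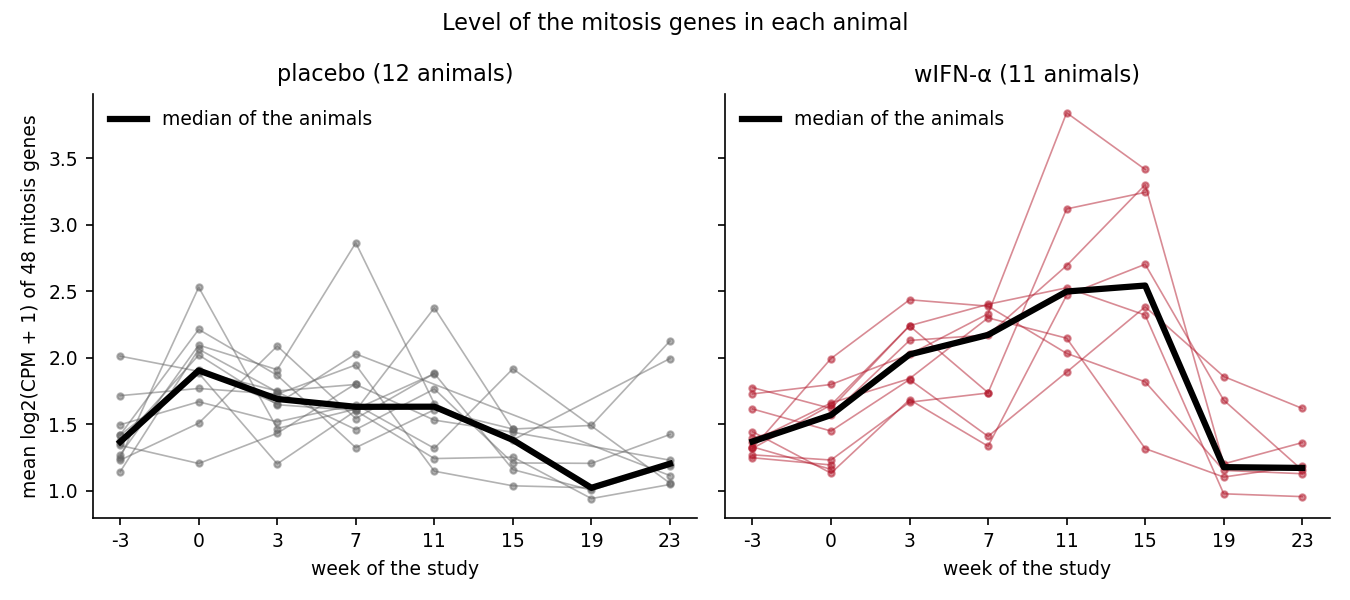
Mean log2(CPM + 1) of the 48 mitosis genes (y axis) in each biopsy against the week of the study (x axis), with 1 thin line per animal and the group median as a thick line. The wIFN-α medians rise to 2.50 and 2.54 at weeks 11 and 15 and return to 1.18 at week 19, while the placebo median is highest at week 0 (1.91).

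Before treatment the groups did not differ detectably. A gene was called where edgeR's quasi-likelihood test gave an adjusted p under 0.05 over all genes tested and the fold change exceeded 1.5. At week -3 no gene of 14963 tested was called (0%), which includes the 45 mitosis genes that passed the filter on low counts (CENPE, SPC25 and KIF4A did not). The median log2 fold change of the 45 was 0.02 and that of all genes was 0.00. At an unadjusted p under 0.05 there were 130 genes, 1 of them a mitosis gene, and DESeq2 called none. That gene was AURKB, the kinase of the chromosomal passenger complex, with a log2 fold change of 0.76 ± 0.34 (SE). Its highest value, 5.77 CPM, was in the muscle-containing biopsy of F1018, against 1.54 CPM in the next highest animal of that group.

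Within placebo, mitosis genes were higher at week 0 than at week -3. Of the 48, 31 were called higher and 0 lower, against 3.14% of 15984 genes called higher, and the median log2 fold change was 0.85. DESeq2 also called 31. The level rose in 10 of 12 placebo animals between these weeks, by a median of 0.50 on the log2 scale. UBE2C, the ubiquitin-conjugating enzyme that works with APC/C, had the largest change. It was at 0.272, 0.760 and 1.46 CPM (lowest, median and highest of 12 animals) at week -3 and at 0.748, 2.57 and 5.59 CPM at week 0, a log2 fold change of 1.75 ± 0.35 (SE, adjusted p = 0.00018). The ranges overlapped, but the week 0 median lay above the highest week -3 animal. ECT2, the exchange factor that activates RhoA for cytokinesis, went from 0.198, 0.609 and 1.25 CPM to 0.356, 1.77 and 3.54 CPM (log2 fold change 1.52 ± 0.38, adjusted p = 0.003), and CDK1 from 0.619, 1.20 and 2.83 CPM to 0.570, 3.72 and 5.86 CPM (1.34 ± 0.32, adjusted p = 0.0018). F1024 was the highest placebo animal at week 0 for 37 of the 48 genes and M1010 the lowest for 35. Without F1024 the count fell to 13, and without F1016 and F1017 to 17 and 20, so that its size rested on single animals. All 9 cyclins and mitotic kinases were among the genes called. Markers of other cells differed between the same weeks. Of 6 erythroid markers tested 4 were called lower (median log2 fold change -1.22), against 4.89% of all genes called lower. Their summed CPM was 84.0 to 6368 at week -3, highest in F1016, and 65.5 to 435 at week 0. Of 8 neutrophil markers 4 were called higher (median 0.78), with a summed CPM of 10.8 to 218 at week -3, lowest in F1016, and 86.1 to 224 at week 0. Skeletal muscle markers had a median of -1.71 with 0 of 20 called, and of 18 T and NK cell markers 0 were called (median 0.45). The part of these cells in the placebo change was not tested.

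The placebo rise was smaller or absent later. At week 3, 4 mitosis genes were called higher (CDC20, NDC80, NEK2 and UBE2C; background 2.53%). At week 7, 20 were called higher (background 5.31%) and 1 lower (background 9.54%). The higher count was 3 without F1015, which was the highest placebo animal of week 7 for 47 of the 48 genes. At week 11, 4 were called higher (NDC80, NEK2, PTTG1 and RACGAP1; background 5.19%) and 1 lower (background 8.21%). The lower call at each of these weeks was among the kinesins and spindle proteins. At week 15, 4 of 48 were called in either direction, fewer than the background share of 14.8%: NDC80 and NEK2 higher, TPX2 and NCAPH lower. Without F1016, whose week -3 biopsy held muscle, the count was 1 (NEK2), and without biopsies over 1% muscle reads it was 4. NEK2, a kinase of centrosome separation, and NDC80 were called higher at each of the weeks from 0 to 15. The placebo median of NEK2 was 5.95 CPM at week -3, 9.77 at week 0, 9.94 at week 3, 13.9 at week 7, 13.8 at week 11 and 12.6 at week 15, before it was 6.54 at week 19 and 5.85 at week 23. Its log2 fold change against week -3 was 1.28 ± 0.15 at week 7 (adjusted p = 1.2e-09) and 1.14 ± 0.16 at week 15 (adjusted p = 1.5e-07). For NDC80, which links kinetochores to microtubules, that change was 1.35 ± 0.28 at week 7 (adjusted p = 0.00011) and 0.78 ± 0.29 at week 15 (adjusted p = 0.038).

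At weeks 19 and 23, 1 mitosis gene was called lower in placebo than at week -3, and it was TPX2 both times. This was fewer than the background shares of 3.37% and 10.4%. The median log2 fold change of the 48 genes was -0.78 at week 19, when 5 animals were biopsied, and -0.01 at week 23. At week 19 the count was 5 by DESeq2 and 3 with the animal as a replicate block, and it ranged from 0 to 13 when single animals were left out (13 without M1008, 0 without M1011 or F1016, 5 without F1015, 2 without F1021). TPX2, which targets Aurora A to the spindle, stood far above its usual level in the muscle-containing biopsies. It was at 54.9 CPM in F1016 and 56.5 CPM in F1018 at week -3, where the medians of the other animals of their groups were 4.93 and 5.18 CPM. Its log2 fold change in placebo at week 23 was -1.39 ± 0.36 (adjusted p = 0.0017) with all biopsies and -0.57 without those over 1% muscle reads, where it was no longer called. HMMR, another spindle protein, stood out in the same biopsies at 5.74 and 7.36 CPM against 0.870 and 0.885 CPM. NCAPH, a condensin subunit, was at 8.44 and 6.52 CPM against 2.49 and 2.45 CPM. By contrast, 39 of the 48 genes in F1016 and 30 in F1018 lay below the median of the other animals.

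The difference between the groups had its lower phase at week 0. 22 of 48 mitosis genes were called lower in wIFN-α than in placebo and 0 higher, against 8.15% of 14700 genes called lower. The median log2 fold change was -0.74, and that of all genes -0.01. Without F1024 17 were called, without M1012 28, and without biopsies over 1% muscle reads 25. Of these genes, CDCA8 and CDCA3 had the lowest fold changes. CDCA8, the borealin subunit of the chromosomal passenger complex, was at 0.852, 1.69 and 3.77 CPM in placebo (lowest, median, highest) and at 0.145, 0.654 and 1.52 CPM in wIFN-α. All 11 wIFN-α animals lay below the placebo median and 8 of them below the lowest placebo animal, for a log2 fold change of -1.47 ± 0.32 (SE, adjusted p = 0.00084). CDCA3, an adaptor that leads the mitosis inhibitor WEE1 to destruction, was at 0.677, 1.31 and 3.39 CPM in placebo and at 0.0776, 0.351 and 1.30 CPM in wIFN-α (-1.47 ± 0.39, adjusted p = 0.0045). Here 7 of 11 wIFN-α animals lay below the lowest placebo animal and none lay above the placebo median.

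Members of every role were in the lower set at week 0. Of 9 genes of APC/C and its regulators 3 were called, and of 9 cyclins and mitotic kinases 5. MAD2L1, the checkpoint protein that binds CDC20, had a log2 fold change of -1.22 ± 0.20 (adjusted p = 2.7e-05). CCNB1, cyclin B1, was at 0.784, 3.67 and 7.46 CPM in placebo and at 0.569, 1.79 and 2.99 CPM in wIFN-α, where each animal lay below the placebo median (-1.16 ± 0.29, adjusted p = 0.0028). PLK1, the Polo-like kinase, was at 1.46, 2.75 and 4.98 CPM in placebo and at 0.646, 1.32 and 2.72 CPM in wIFN-α, with 7 of 11 animals below the lowest placebo animal (-0.97 ± 0.23, adjusted p = 0.0019). RACGAP1, a part of the centralspindlin complex of the dividing cell's midzone, was at 1.25, 2.09 and 6.24 CPM in placebo and 0.618, 0.924 and 2.43 CPM in wIFN-α, with 9 of 11 below the lowest placebo animal (-1.18 ± 0.27, adjusted p = 0.0014). TOP2A, the topoisomerase that untangles sister chromosomes, was at 2.89, 12.2 and 19.4 CPM in placebo and 1.84, 5.29 and 9.26 CPM in wIFN-α (-1.24 ± 0.27, adjusted p = 0.00096), again with no wIFN-α animal above the placebo median. FOXM1, the transcription factor of the late cell cycle, was at 0.321, 2.29 and 5.56 CPM in placebo and 0.412, 1.10 and 1.85 CPM in wIFN-α (-1.18 ± 0.38, adjusted p = 0.018), with the groups overlapping.

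Other mitosis genes did not show this at week 0. ECT2 had a median of 1.77 CPM in placebo and 2.70 CPM in wIFN-α (log2 fold change 0.46 ± 0.34, adjusted p = 0.32), and CDC20, the APC/C activator, 2.77 and 2.43 CPM (-0.10 ± 0.37, adjusted p = 0.87). DLGAP5, a spindle-assembly protein, was at 10.9, 12.6 and 14.3 CPM in placebo and 7.43, 9.98 and 13.3 CPM in wIFN-α, and 9 of 11 wIFN-α animals lay below the lowest placebo animal. Its log2 fold change of -0.40 ± 0.08 passed the adjusted p (0.00056) but not the fold change of 1.5. TPX2 had a log2 fold change of -0.20 ± 0.30 (adjusted p = 0.65) with all biopsies and -0.83 without those over 1% muscle reads, where it was called. Its highest wIFN-α value at week 0, 21.3 CPM, was in F1023.

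Between weeks -3 and 0 the level of the mitosis genes rose in 10 of 12 placebo animals but in 5 of 11 wIFN-α animals, with a median change of 0.50 in placebo and -0.04 in wIFN-α. In a test of the change of the group difference from week -3 to week 0, 7 mitosis genes were lower at an adjusted p under 0.05 (MAD2L1, AURKB, CDCA8, DLGAP5, TOP2A, RACGAP1 and CDCA3), against 8.19% of 16232 genes. The median of this change over the 48 genes was -0.71. Without biopsies over 1% muscle reads the count was 5, without AURKB and CDCA3.

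At week 3 the direction had turned. 7 mitosis genes were called higher in wIFN-α and 0 lower (ANLN, CDC20, CDK1, ECT2, ESPL1, MELK and PBK), against 7.24% of 15006 genes called higher. The median log2 fold change was 0.53 against -0.04 for all genes. The level rose from week 0 to week 3 in 9 of 9 wIFN-α animals and fell in 10 of 12 placebo animals. ECT2 was at 0.360, 1.06 and 2.43 CPM in placebo and 1.78, 3.99 and 7.11 CPM in wIFN-α, where the lowest animal was F1013 and 7 of 9 lay above the highest placebo animal (1.89 ± 0.29, adjusted p = 6.7e-05). ESPL1, the separase that cuts the cohesin between sister chromosomes, was at 0.720, 1.95 and 2.79 CPM in placebo and 2.29, 4.46 and 5.42 CPM in wIFN-α, with 8 of 9 above the highest placebo animal (1.12 ± 0.19, adjusted p = 0.00019). ANLN, the contractile ring protein anillin, was at 0.520, 1.45 and 2.72 CPM in placebo and 2.02, 3.21 and 9.62 CPM in wIFN-α (1.10 ± 0.28, adjusted p = 0.0079). Without F1013, whose biopsy lacked the interferon response, 8 genes were called. Without biopsies over 1% muscle reads 3 were called (ECT2, ESPL1 and MYBL2). That cut took out the placebo animals M1001, M1008, M1009, M1011, F1017 and F1021 and the wIFN-α animals M1012 and F1018. M1011 was the lowest placebo animal for 28 of the 48 genes, and M1012 the highest wIFN-α animal for 26.

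At week 7, 6 hours after the first 100 μg dose, 4 mitosis genes were called higher (CDC20, ECT2, ESPL1 and MELK) and 0 lower. This was fewer than the background share of 11.4% of 14868 genes called higher. The median log2 fold change of the 48 genes was 0.26. ECT2 was at 0.574, 1.25 and 4.69 CPM in placebo and 1.83, 7.12 and 9.07 CPM in wIFN-α (1.98 ± 0.36, adjusted p = 0.0001). CDC20 was at 0.836, 1.73 and 9.48 CPM in placebo and 1.48, 6.94 and 13.0 CPM in wIFN-α (1.28 ± 0.43, adjusted p = 0.018). F1015 was the highest placebo animal in both, and the groups overlapped. DLGAP5 was below the placebo median in 9 of 9 wIFN-α animals (log2 fold change -0.29 ± 0.08, adjusted p = 0.0029, under the fold change of 1.5).

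At weeks 11 and 15, on 100 μg, nearly all mitosis genes were higher in wIFN-α. At week 11 42 of 48 were called higher and 0 lower, against 12.6% of 14966 genes called higher, and at week 15 44 of 48 were called higher and 0 lower, against 13.4% of 14943 genes. The median log2 fold change of the 48 was 1.52 and 2.15, where that of all genes was -0.03 and -0.01. DESeq2 called 42 and 44. When single animals were left out, 36 to 43 genes were called at week 11 (36 without M1002) and 44 to 45 at week 15. The plot of the fold changes by role shows called genes in every role. Of 9 cyclins and mitotic kinases 9 were called at week 15, of 9 genes of APC/C and its regulators 8, of 6 centromere and kinetochore genes 6, of 10 kinesins and spindle proteins 8, of 4 chromosome structure genes 4, of 4 cytokinesis genes 4, of 3 chromosomal passenger genes 2, and both transcription factors.

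**Figure D2:**
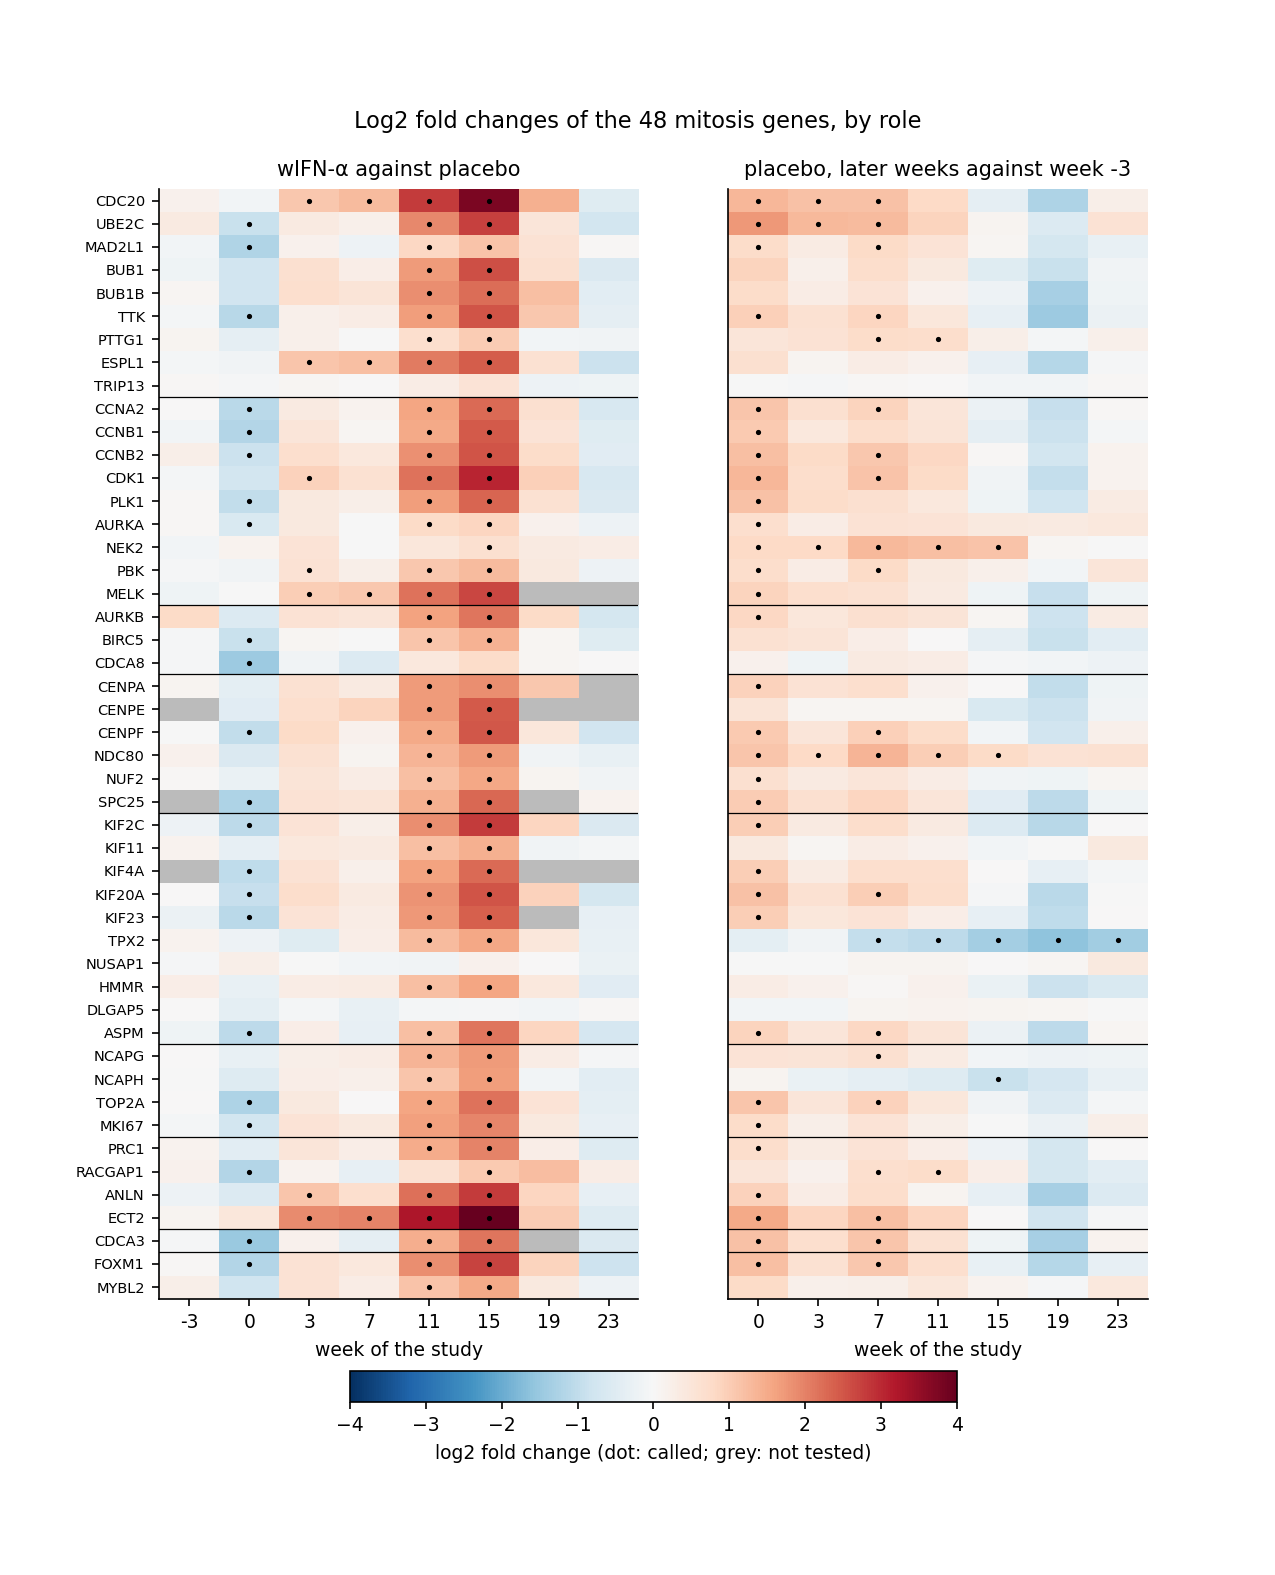
Log2 fold change of each of the 48 mitosis genes (rows, grouped by role with lines between roles) at each week of the study (columns), for wIFN-α against placebo on the left and for placebo weeks against week -3 on the right, on a colour scale from blue (lower) to red (higher). Dots mark called genes and grey marks genes not tested, and the columns of weeks 11 and 15 carry 42 and 44 dots, while week 0 carries 22 on the lower side.

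In the group of APC/C and its regulators, CDC20 had the largest change at week 15. It was at 1.03 CPM in M1001, 0.481 in M1005, 0.600 in M1008, 0.398 in M1011, 0.817 in F1015, 0.583 in F1016, 0.827 in F1017, 0.236 in F1019 and 2.30 in F1021 among placebo animals. Among wIFN-α animals it was at 26.0 CPM in M1002, 19.1 in M1003, 4.26 in M1012, 8.60 in F1013, 1.83 in F1014, 11.4 in F1018, 12.8 in F1020 and 5.51 in F1022. All wIFN-α animals but F1014 lay above the highest placebo animal, F1021, and the log2 fold change was 3.77 ± 0.50 (SE, adjusted p = 1e-05). At week 11 the groups did not overlap in CDC20, with 0.515, 1.77 and 3.89 CPM in placebo and 3.96, 9.30 and 40.3 CPM in wIFN-α (2.79 ± 0.44, adjusted p = 5.1e-05). Nor did they overlap in ECT2 and MELK at that week, and the share of all genes without overlap was not computed. UBE2C was at 0.355, 0.862 and 2.0 CPM in placebo and 0.741, 5.24 and 10.3 CPM in wIFN-α at week 15 (2.75 ± 0.46, adjusted p = 0.00012). BUB1B, the checkpoint protein BubR1, was at 0.177, 0.597 and 1.71 CPM in placebo and 0.523, 2.59 and 6.47 CPM in wIFN-α (2.23 ± 0.49, adjusted p = 0.0014), with 5 of 8 above the highest placebo animal. ESPL1 was at 0.650, 1.20 and 2.68 CPM in placebo and 2.22, 5.84 and 12.5 CPM in wIFN-α, with 7 of 8 above the highest placebo animal (2.42 ± 0.34, adjusted p = 1.6e-05). The checkpoint kinases BUB1 and TTK had log2 fold changes of 2.57 ± 0.43 and 2.51 ± 0.51, and PTTG1, the securin that holds separase inactive, 1.01 ± 0.21 (adjusted p = 0.00085).

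Cyclins and kinases changed by similar amounts. CDK1 was at 0.502, 1.11 and 3.09 CPM in placebo and 1.75, 8.63 and 19.5 CPM in wIFN-α at week 15, with 7 of 8 above the highest placebo animal (3.04 ± 0.45, adjusted p = 3.2e-05). CCNB1 was at 0.597, 1.18 and 3.65 CPM in placebo and 1.09, 6.76 and 14.4 CPM in wIFN-α (2.47 ± 0.46, adjusted p = 0.00033). PLK1 was at 0.481, 0.935 and 2.64 CPM in placebo and 0.872, 4.49 and 10.7 CPM in wIFN-α (2.32 ± 0.44, adjusted p = 0.00042). In each of these last 2 genes, 6 of 8 wIFN-α animals lay above the highest placebo animal, which was F1021. Cyclins A2 (CCNA2) and B2 (CCNB2) had log2 fold changes of 2.26 ± 0.43 and 2.51 ± 0.44 and MELK, a kinase of proliferating cells, 2.68 ± 0.40. Smaller changes were found for PBK (1.26 ± 0.25), AURKA, the centrosomal Aurora kinase (0.86 ± 0.26), and NEK2. NEK2, already high in placebo at this week, was at 12.1, 12.6 and 19.3 CPM in placebo and 10.6, 22.8 and 27.4 CPM in wIFN-α (0.64 ± 0.15, adjusted p = 0.0025), and at week 11 it passed the adjusted p (0.013) but not the fold change of 1.5 (0.47 ± 0.14).

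On the chromosomes and at the kinetochores, AURKB was at 0.384, 0.796 and 1.47 CPM in placebo and 0.872, 3.70 and 7.06 CPM in wIFN-α at week 15 (2.16 ± 0.39, adjusted p = 0.00023). BIRC5, the survivin of the same complex, had a log2 fold change of 1.39 ± 0.32 (adjusted p = 0.0021). CENPF, a large kinetochore protein, was at 0.374, 0.947 and 2.82 CPM in placebo and 1.27, 4.65 and 13.7 CPM in wIFN-α (2.49 ± 0.47, adjusted p = 0.00041). NDC80 was at 0.873, 1.36 and 3.24 CPM in placebo and 1.09, 5.12 and 9.03 CPM in wIFN-α (1.71 ± 0.42, adjusted p = 0.0034), where 4 of 8 lay above the highest placebo animal. SPC25, of the same complex as NDC80, was at 0.0886, 0.241 and 0.515 CPM in placebo and 0.175, 1.59 and 2.31 CPM in wIFN-α (2.31 ± 0.46, adjusted p = 0.00058). The remaining kinetochore genes were CENPE (2.46 ± 0.55), CENPA, the centromeric histone (1.85 ± 0.36), and NUF2 (1.54 ± 0.23).

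Among genes of chromosome structure, MKI67, whose product Ki-67 is the usual stain for dividing cells, was at 6.82, 10.2 and 16.2 CPM in placebo and 8.90, 32.3 and 69.5 CPM in wIFN-α at week 15. All wIFN-α animals but F1014 lay above the highest placebo animal (1.96 ± 0.34, adjusted p = 0.00015). TOP2A was at 2.66, 5.57 and 9.67 CPM in placebo and 3.36, 17.8 and 41.7 CPM in wIFN-α (2.16 ± 0.42, adjusted p = 0.00053), and NCAPG, a condensin subunit, was at 1.10, 1.73 and 3.05 CPM in placebo and 2.05, 4.61 and 10.7 CPM in wIFN-α (1.70 ± 0.31, adjusted p = 0.00025). In both genes 6 of 8 wIFN-α animals lay above the highest placebo animal. NCAPH had a log2 fold change of 1.66 ± 0.35.

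Spindle motors and spindle proteins were less uniform. KIF20A, a kinesin of the central spindle, was at 0.414, 0.974 and 2.56 CPM in placebo and 1.18, 6.0 and 13.9 CPM in wIFN-α at week 15 (2.52 ± 0.44, adjusted p = 0.0002). KIF11, the kinesin that pushes the spindle poles apart, was at 2.27, 3.35 and 4.18 CPM in placebo and 2.75, 7.32 and 15.1 CPM in wIFN-α (1.42 ± 0.28, adjusted p = 0.00053). In KIF20A 6 of 8 and in KIF11 7 of 8 wIFN-α animals lay above the highest placebo animal, and F1014 was the lowest in both. KIF2C, a microtubule-depolymerizing kinesin, had a log2 fold change of 2.79 ± 0.44, KIF23 of 2.38 ± 0.46, KIF4A of 2.25 ± 0.45 and ASPM, a spindle pole protein, of 2.13 ± 0.43. TPX2 was at 1.92, 3.34 and 7.75 CPM in placebo and 2.31, 8.10 and 22.8 CPM in wIFN-α (1.55 ± 0.39, adjusted p = 0.0041), and HMMR at 0.615, 0.941 and 1.76 CPM and 1.13, 2.68 and 5.54 CPM (1.57 ± 0.32, adjusted p = 0.00081).

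In cytokinesis, ECT2 had the largest change of all 48 genes. At week 15 it was at 0.530 CPM in M1001, 0.187 in M1005, 0.633 in M1008, 0.398 in M1011, 0.793 in F1015, 0.328 in F1016, 0.863 in F1017, 0.355 in F1019 and 1.61 in F1021 among placebo animals, and at 18.1 CPM in M1002, 19.4 in M1003, 4.22 in M1012, 5.67 in F1013, 1.44 in F1014, 8.94 in F1018, 16.8 in F1020 and 7.02 in F1022 among wIFN-α animals. F1014 alone lay below the highest placebo animal, and the log2 fold change was 3.98 ± 0.50 (adjusted p = 4.7e-06). At week 11 the groups did not overlap in ECT2, with a placebo maximum of 3.02 CPM and a wIFN-α minimum of 4.28 CPM (3.24 ± 0.41, adjusted p = 4e-06). ANLN was at 0.325, 0.925 and 2.20 CPM in placebo and 0.523, 6.97 and 12.4 CPM in wIFN-α at week 15 (2.81 ± 0.48, adjusted p = 0.00014), and PRC1, the crosslinker of midzone microtubules, at 1.03, 1.73 and 2.97 CPM and 1.31, 5.91 and 14.1 CPM (2.0 ± 0.37, adjusted p = 0.00035). RACGAP1, the binding partner of ECT2 at the midzone, changed least of the 4 (1.04 ± 0.32, adjusted p = 0.016) and was not called at week 11 (0.59 ± 0.34, adjusted p = 0.18).

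The transcription factors that drive many of these genes were themselves higher. FOXM1 was at 0.148, 0.619 and 2.20 CPM in placebo and 0.698, 4.48 and 11.8 CPM in wIFN-α at week 15, with 6 of 8 above the highest placebo animal (2.71 ± 0.54, adjusted p = 0.00062). MYBL2, which encodes B-Myb, was at 0.134, 0.655 and 2.46 CPM in placebo and 0.689, 1.76 and 5.37 CPM in wIFN-α (1.53 ± 0.48, adjusted p = 0.017), with 3 of 8 above the highest placebo animal. CDCA3 had a log2 fold change of 2.14 ± 0.45 (adjusted p = 0.001).

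**Figure D3:**
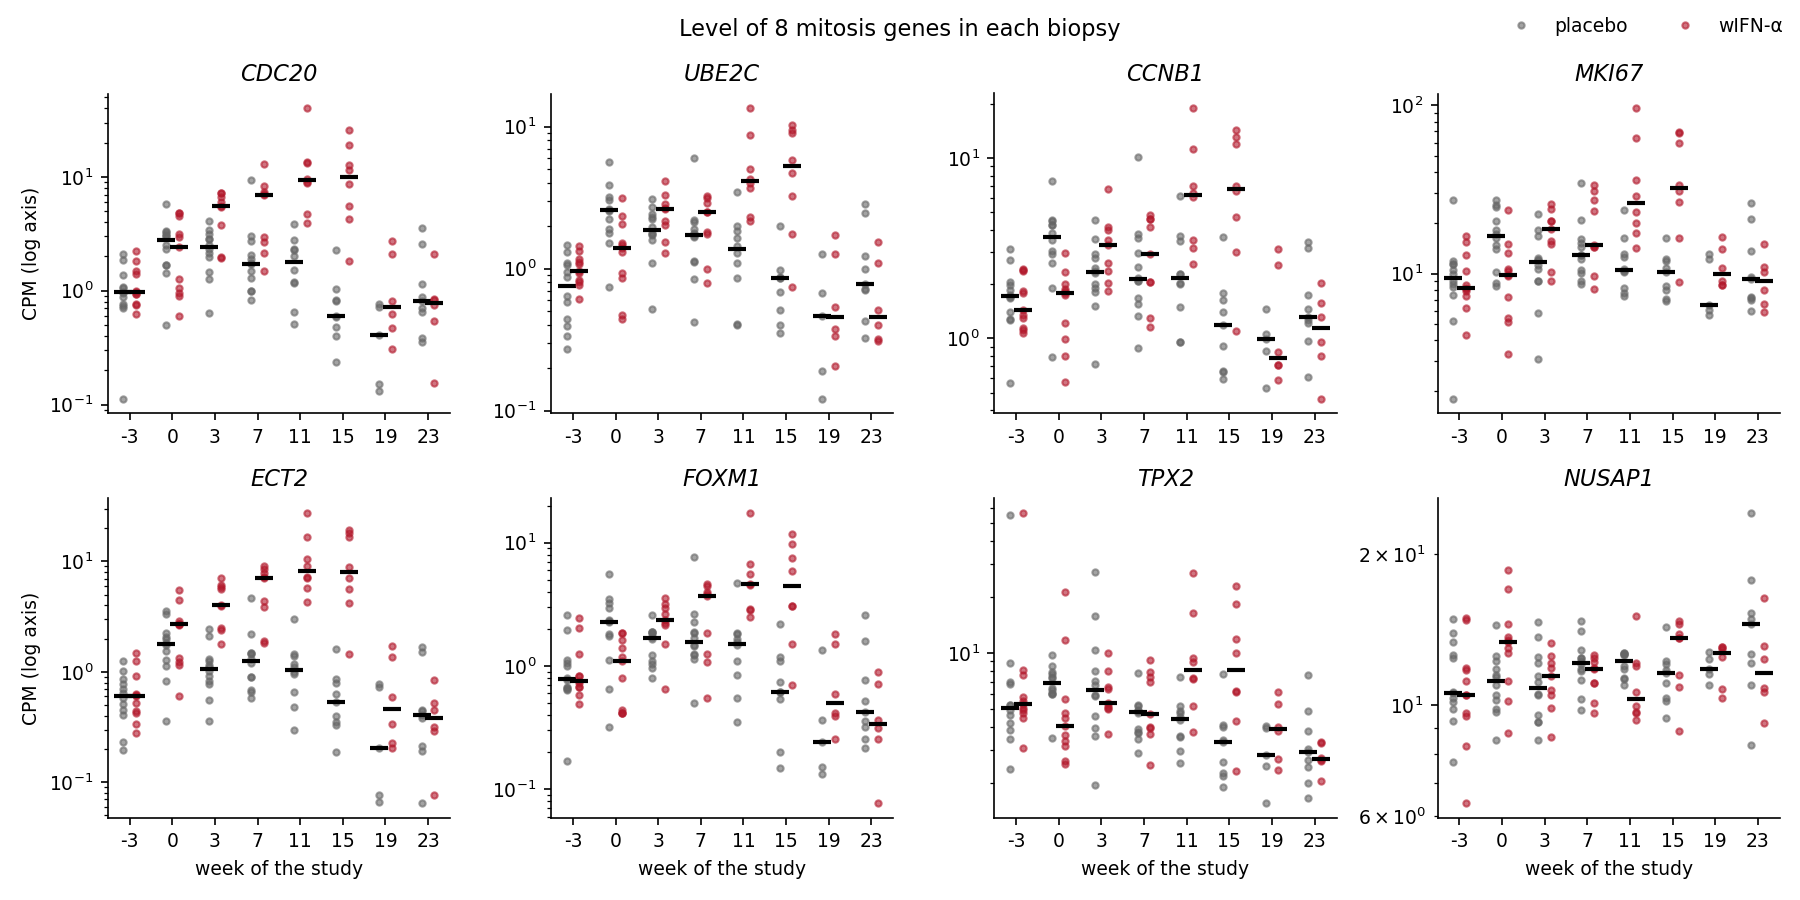
CPM of 8 mitosis genes (log axes) in each biopsy by week of the study, placebo in grey and wIFN-α in red, with a bar at each group's median. CDC20, UBE2C, CCNB1, MKI67, ECT2 and FOXM1 separate most at weeks 11 and 15, TPX2 has 1 biopsy of each group near 55 CPM at week -3 (54.9 and 56.5, the muscle-containing biopsies), and NUSAP1 stays between 6.37 and 24.2 CPM throughout.

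A group of 4 mitosis genes was not called at week 15. NUSAP1, a microtubule-binding spindle protein, was at 9.42, 11.6 and 14.3 CPM in placebo and 8.87, 13.6 and 14.7 CPM in wIFN-α (log2 fold change 0.17 ± 0.10, adjusted p = 0.2). DLGAP5 was at 11.8, 14.0 and 17.7 CPM in placebo and 9.07, 14.8 and 17.1 CPM in wIFN-α (-0.04 ± 0.12, adjusted p = 0.83). TRIP13, an ATPase that disassembles checkpoint complexes, was at 2.19, 2.50 and 2.69 CPM in placebo and 2.14, 3.39 and 5.28 CPM in wIFN-α (0.53 ± 0.17), which passed the adjusted p (0.018) but not the fold change of 1.5. CDCA8 was at 0.739, 1.65 and 2.46 CPM in placebo and 0.523, 2.26 and 4.39 CPM in wIFN-α (0.72 ± 0.36, adjusted p = 0.12), and 4 of 8 wIFN-α animals lay above the highest placebo animal. NUSAP1 and DLGAP5 had the smallest standard errors of the 48 genes at this week.

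DLGAP5 and NUSAP1 also had the highest levels per length. In placebo at week -3 they were at 4.61 and 4.38 CPM per kilobase of their assembled transcript, where ECT2 was at 0.111 and CENPF at 0.0990 CPM per kilobase. Among the 45 genes with a transcript length (ASPM, CENPE and KIF4A had none), the 15 with the highest level per length had a median log2 fold change at week 15 of 1.04, and 11 of them were called. The 15 in the middle had a median of 2.26 and the 15 lowest one of 2.49, and all 15 were called in each. In wIFN-α at week 15 the highest levels per length were those of NEK2 (7.52), NUSAP1 (5.63), CDC20 (4.91) and DLGAP5 (4.80 CPM per kilobase). CDC20 thereby went from rank 23 in placebo at week -3 to rank 3.

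Individual wIFN-α animals differed widely at week 15. F1014 was the lowest of 8 for 43 of the 48 genes and M1002 the highest for 28, and the mean log2(CPM + 1) over the 48 genes was 3.42 in M1002, 3.30 in M1003, 3.25 in F1020, 2.70 in F1018, 2.38 in F1013, 2.32 in F1022, 1.82 in M1012 and 1.32 in F1014. The placebo animals lay between 1.04 (F1019) and 1.92 (F1021), so that M1012 and F1014 were within the placebo range and the other 6 above it. The upper end was F1021 alone, whose biopsy had 1.13% of reads on the muscle genes and stood apart from the other placebo animals. M1012 lay above every placebo animal but F1021. The mean log2(CPM + 1) of the interferon response genes was 9.41 in F1014, the highest of the 8, and 8.73 in F1020, the lowest. At week 11 M1002 reached 3.84, the highest level of any biopsy used, and was the highest animal for 46 of the 48 genes, while F1014 was at 2.15 and F1013, the lowest, at 1.89. Within animals, the level was higher at week 15 than at week -3 in 7 of 8, by a median of 1.01. The gene medians of wIFN-α peaked at week 15 for 36 of the 48 genes and at week 11 for the other 12, whereas those of placebo peaked at week 0 for 39.

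After dosing had ended, no difference between the groups was called. At week 19, 0 mitosis genes of 42 tested were called and no gene of 14715 was (0%), with a median log2 fold change of 0.51 in the mitosis genes. 1859 genes, 3 of them mitosis genes, had an unadjusted p under 0.05, and DESeq2 called 94 genes, of which RACGAP1 was the only mitosis gene. The level fell between weeks 15 and 19 in 6 of 6 wIFN-α animals with both biopsies, by a median of 0.84. CDC20 was at 0.132 CPM in M1005, 0.725 in M1008, 0.152 in M1011, 0.772 in F1016 and 0.405 in F1019 among placebo animals, and at 0.627 CPM in M1003, 0.468 in M1012, 2.73 in F1013, 0.820 in F1014, 2.09 in F1018 and 0.308 in F1022 among wIFN-α animals (1.42 ± 0.66, adjusted p = 0.4). F1013, F1018 and F1014 lay above the placebo animals and the others among them. In RACGAP1, alone among the mitosis genes, the groups did not overlap, and the share of all genes without overlap was not computed. RACGAP1 was at 0.727 CPM in M1005, 1.09 in M1008, 1.10 in M1011, 1.35 in F1016 and 1.05 in F1019, against 2.34 CPM in M1003, 2.15 in M1012, 4.39 in F1013, 1.81 in F1014, 2.30 in F1018 and 2.20 in F1022 (log2 fold change 1.24 ± 0.26, adjusted p = 0.27). At week 23, 0 of 44 mitosis genes tested were called and no gene of 14956 was (0%), and the median log2 fold change was -0.41. There 2416 genes had an unadjusted p under 0.05, of which ESPL1 (-0.86 ± 0.38) was the only mitosis gene, and DESeq2 called 53 genes but no mitosis gene.

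The changes of the group difference between weeks were tested in 1 fit of all weeks. From week 0 to week 15 the difference rose in 43 of 48 mitosis genes at an adjusted p under 0.05, against 2.34% of 16232 genes, and the median rise was 2.69 on the log2 scale. FOXM1 (3.87 ± 0.63, adjusted p = 4.4e-06), CDC20 (3.85 ± 0.61, adjusted p = 2.5e-06) and KIF2C (3.83 ± 0.55, adjusted p = 4.3e-07) rose the most. NEK2, NUSAP1, DLGAP5, TRIP13 and TPX2 did not pass (adjusted p = 0.4, 0.85, 0.18, 0.091 and 0.055). From week 15 to week 19 the difference fell in 21 of 48 mitosis genes, against 10.2% of genes, with a median of -1.57. ECT2 had the largest fall (-2.96 ± 0.76, adjusted p = 0.0024), followed by CDC20 (-2.34 ± 0.77, adjusted p = 0.026). RACGAP1 changed by 0.23 ± 0.49 (adjusted p = 0.83). Without biopsies over 1% muscle reads the 2 counts were 44 and 31, and with the animal as a replicate block they were 45 and 18.

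The other cell cycle genes had smaller medians than the 48 mitosis genes at week 15. Among all genes tested at that week, 13.4% were called higher and 8.83% lower. Of 46 other mitotic genes tested 24 were called higher and 1 lower, with a median log2 fold change of 0.73. ZWINT, a kinetochore protein (2.93 ± 0.47), CKAP2 (2.60 ± 0.44) and the kinesin KIFC1 (2.24 ± 0.24) were the highest of them, and GTSE1 was the lower one (-1.16 ± 0.25). Of 39 genes of DNA replication and entry into S phase 16 were called higher and 2 lower, with a median of 0.42. Cyclin E2 (CCNE2, 2.22 ± 0.29), UHRF1 (2.11 ± 0.37) and CDC45, a component of the replicative helicase (1.75 ± 0.32) were higher, and cyclin E1 (CCNE1, -0.80 ± 0.24) and the phosphatase CDC25A (-0.74 ± 0.16) lower. Of 22 cell cycle brakes and G1 cyclins 7 were called higher and 1 lower (median 0.15). CDKN2C, an inhibitor of CDK4 and CDK6 (1.70 ± 0.36), and MYC (1.38 ± 0.30) were higher, and CDKN1C, which encodes the inhibitor p57 (-0.84 ± 0.22), was lower. Of 19 genes of the DREAM repressor complex and the APC/C core 2 were called higher, RBBP4 (1.69 ± 0.08) and LIN9 (1.63 ± 0.18), and 1 lower, ANAPC11 (-0.67 ± 0.12). The higher count of this last list and the lower count of each list were below the shares of all genes. The plot of list medians sets the first 3 of these lists beside all genes tested.

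**Figure D4:**
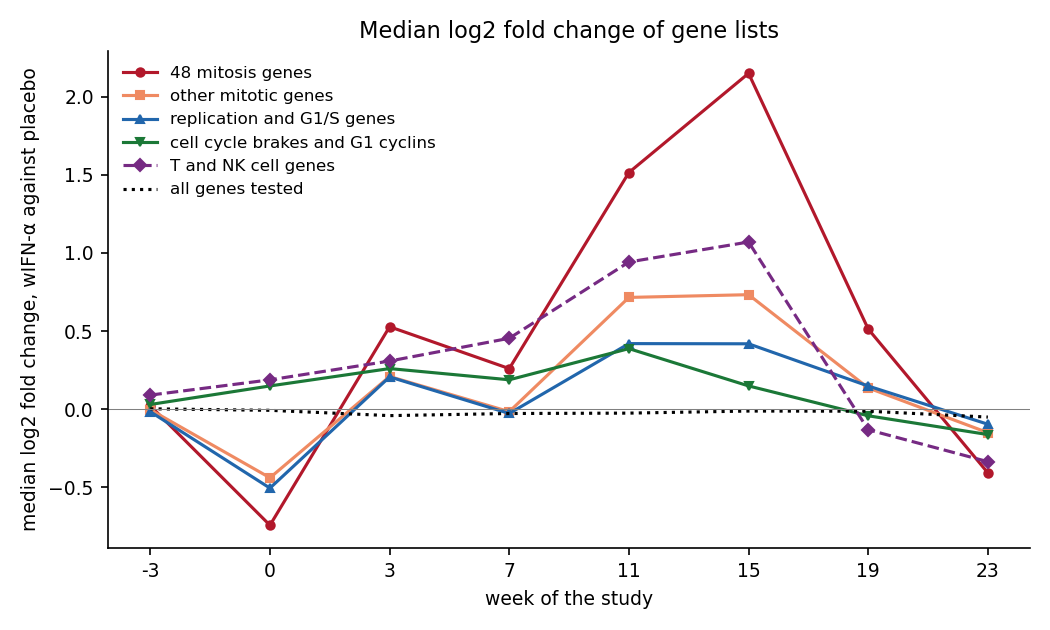
Median log2 fold change of wIFN-α against placebo (y axis) for the 48 mitosis genes, 3 other cell cycle lists, T and NK cell markers and all genes tested, by week of the study (x axis). The mitosis genes have the lowest median at week 0 (-0.74) and the highest at week 15 (2.15), where T and NK cell markers are at 1.07 and other mitotic genes at 0.73.

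At week 0 the other mitotic genes and the replication genes had lower medians than all genes tested, while the brakes had a median above 0. Of 45 other mitotic genes 15 were called lower and 4 higher (median -0.44). ARHGAP11A (-1.24 ± 0.30), KIF20B (-1.09 ± 0.17) and CKS1B, a CDK-binding subunit (-1.05 ± 0.15), were lower, while ZWINT (2.11 ± 0.46), SGOL1, the shugoshin that guards centromeric cohesin (1.12 ± 0.24), and KIFC1 (1.08 ± 0.24) were higher. Of 38 replication and S phase genes 16 were called lower and 0 higher (median -0.51), among them E2F1, the S phase transcription factor (-1.24 ± 0.28), and the origin-licensing factor CDT1 (-1.09 ± 0.26). Of 22 brakes and G1 cyclins 6 were higher and 3 lower (median 0.15). GADD45B (1.36 ± 0.23), CDKN2B, which encodes p15 (1.00 ± 0.26), and BTG2 (0.91 ± 0.22), genes with antiproliferative roles, were higher. Cyclin D1 (CCND1, -1.51 ± 0.30), cyclin G2 (CCNG2, -1.13 ± 0.17) and the inhibitor CDKN2C (-0.79 ± 0.24) were lower, so that called brakes went in both directions. Of 19 genes of the DREAM complex and APC/C core 2 were higher, RBBP4 (1.30 ± 0.12) and LIN9 (1.06 ± 0.18), and 0 lower. Over all genes tested at week 0, 10.35% were called higher and 8.15% lower. The higher counts of this last list and of the other mitotic genes were thus near the background share.

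Markers of T and NK cells were also higher at week 15. Of 17 T and NK cell markers tested 13 were called higher and 0 lower, with a median log2 fold change of 1.07. The summed CPM of the 18 markers was 64.6 to 123 in placebo (median 103.9) and 160 to 338 in wIFN-α (median 182), so that the groups did not overlap, and none of the 18 was at 0 in every biopsy of either group. GZMA, a granzyme of cytotoxic cells (2.29 ± 0.37), and PRF1, which encodes perforin (1.96 ± 0.37), had the largest changes. F1020 was highest in these markers, and F1014, lowest in the mitosis genes, was at a mean log2(CPM + 1) of 2.19 for the T and NK cell markers against 2.17 in F1013, the lowest. B and plasma cell markers were higher in 4 of 8 (median 0.82). Of 12 hepatocyte markers 1 was called higher (FGB, 0.85 ± 0.29) and 1 lower (CYP3A4, -0.70 ± 0.23), and their summed CPM was 73050 to 100400 in placebo and 69910 to 121400 in wIFN-α. At week 0, when mitosis genes were lower, 4 of 17 T and NK cell markers were called higher and 0 lower. The shares of all genes tested at that week were 10.35% higher and 8.15% lower. Skeletal muscle markers had a median log2 fold change of 1.23 at week 0, with 0 of 18 called. Stellate cell markers were lower in 2 of 9 at week 0 and in 4 of 9 at week 15. Over all genes tested at week 15, 13.4% were called higher and 8.83% lower, which is the background for the counts of each list. Of the remaining lists at week 15, myeloid markers were called higher in 2 of 10 and lower in 1, neutrophil markers higher in 2 of 8, endothelial markers higher in 1 and lower in 1 of 8, cholangiocyte markers higher in 1 of 6 and erythroid markers lower in 1 of 6. The part of these cells in the mitosis result was not tested.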

How the data were processed

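Liver biopsies were profiled by poly(A) RNA-Seq with 50-nucleotide paired-end reads. Per the labels and the study's methods, the authors mapped reads to their own assembled woodchuck transcriptome, and the submitters' processing notes name CASAVA, FastQC, Bowtie2, SAMtools and DESeq without versions. The deposited expected counts per gene, made by the authors for each sequencing run, were used for the tests. The RPKM values deposited by the authors were used only to derive transcript length. Of 3368023 entries 118 were fractional, and these counts were rounded. The design had assumed whole counts. Genes not listed in a run were taken as 0, the entry for the virus was left out, and the 203 runs were summed into 164 biopsies, of which 149 were used (7 of M1004 and 8 of other times were not).

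At each week wIFN-α was compared with placebo by edgeR 4.0.16 (quasi-likelihood test, TMM scaling, filter on low counts) in R 4.3.3 with limma 3.58.1. Placebo weeks were compared with week -3, and changes of the group difference were tested in 1 fit of all weeks. P-values were adjusted by Benjamini-Hochberg over all genes tested. Calls needed both an adjusted p below 0.05 and more than 1.5-fold difference, except that changes of the difference needed the adjusted p alone. CPM were scaled over all biopsies. DESeq2 1.42.0, other scaling, filters, covariates and left-out animals, among them M1010 and F1017 together, were alternatives. Tables and plots used Python 3.11.15, numpy 2.4.6, pandas 2.3.3 and matplotlib 3.10.9, and the fits were tested on simulated data.

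The same animals were biopsied at several weeks. Of 126 pairs of adjacent weeks, 95 had deviations from the group means that correlated above 0.1 over 16450 genes (median r = 0.43), so the animal was used as a replicate block in an alternative. The members and all gene lists were chosen with earlier results of these data known. Genes named with full values were 1 to 3 per role and those with the 3 highest and 3 lowest fold changes in set comparisons, and further members were named after their values were seen.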

Additional observations from a re-analysis of the deposited data

Results flagged for a closer look

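In 52 combinations of a group of up to 10 biopsies and a measure, the highest or lowest value was tested for a gap to the others, and 5 had such a value. Chance gives this in about 1 in 20, but 4 of the 5 come from 1 biopsy and measures that are not independent, so the count cannot be set against that rate. F1013 at week 3 (wIFN-α) had a mean log2(CPM + 1) of 3.83 for the interferon response genes. F1021 at week 15 stood above the other placebo animals in the mean log2(CPM + 1) of the mitosis genes (1.92), and in the log2(CPM + 1) of CDC20 (1.72), UBE2C (1.59) and CDK1 (2.03).

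The difference between wIFN-α and placebo changed between weeks by a test of the change itself. It was lower at week 0 than at week -3 in 7 mitosis genes, higher at week 15 than at week 0 in 43, and lower at week 19 than at week 15 in 21.

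M1004, the wIFN-α animal in no comparison, had a mean log2(CPM + 1) of the mitosis genes of 2.18 at week 3, 2.11 at week 15 and 1.81 at week 19. The highest placebo animals of those weeks were at 2.09, 1.92 and 1.49. In its other biopsies M1004 was at 1.45 at week -3, 1.77 at week 0 and 1.67 at week 7, within the placebo range, and at 1.25 at week 11, below the placebo median of 1.63 and the lowest wIFN-α animal (1.89).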

How the results depend on the processing

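Reversal was checked for the members named by role or by size of change, at weeks 0, 15 and 23 and in placebo at weeks 0 and 23. No called direction was reversed there under the alternatives run. The other members and comparisons were not checked for it. Values that were not called changed sign. The group difference in level changed sign within the lanes of the deepest runs at weeks -3, 7 and 23, and TPX2 in placebo at week 0 went from -0.40 to 0.39 without biopsies over 1% muscle reads. With a fold change above 2, the counts of mitosis genes called were 14 at week 0 and 4 at week 3, and in placebo 15, 2, 9, 1 and 2 at weeks 0, 3, 7, 11 and 15. Without biopsies over 1% muscle reads they were 3 at week 3 and 0 in placebo at week 23. DESeq2 called 1 at week 19 and 5 in placebo at week 19. With the animal as a replicate block (pairing), 3 were called in placebo at week 19, and no other count moved by over 1.5 times. The group difference in level at week 15 was 1.70 with a pseudocount of 0.1, against 1.19. When single animals were left out, the counts ranged from 17 to 28 at week 0, 36 to 43 at week 11, 44 to 45 at week 15 and 0 to 0 at week 19, and in placebo from 13 to 33, 2 to 6, 3 to 24, 3 to 8, 1 to 4, 0 to 13 and 0 to 4 at weeks 0, 3, 7, 11, 15, 19 and 23. Leaving out F1013 at week 3 (8 genes) and single animals at week 11 was chosen after seeing the data. At weeks 19 and 23 the groups held 5 to 9 biopsies, and why no gene was called there was not tested.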

Other observations

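Other biopsies lay outside the weeks compared. The mean log2(CPM + 1) of the mitosis genes was 1.06 in M1002 in its last biopsy, 1.64 in a further early biopsy of M1006, 2.22 in M1007, 2.04 in F1020 and 1.72 in F1023 at death, and 2.02 in F1024, which was found dead. It was 1.35 in M1010 and 1.86 in F1017, placebo animals euthanized with symptoms that the study linked to terminal liver cancer.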
